A study of Homo sapiens with 6 samples.

Results

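The genes described here encode the linker histones (H1) and the replication-dependent core histones (H2A, H2B, H3 and H4). They were chosen by gene symbol, as every row of the deposited table named H1-, H2AC, H2BC, H3C or H4C with a number, or with an older HIST1 to HIST4 symbol. Gene coordinates are those of the table, on GRCh38.p13 per the submitters' processing notes. The rule used no measured value and found 70 of 61806 rows. Of these, 10 were H1 genes, 16 H2A, 17 H2B, 13 H3 and 14 H4 genes. On the genome, 55 lay on chromosome 6, 11 on chromosome 1, and the rest on other chromosomes. The libraries were poly(A)-selected RNA-seq of HCT116, an established human colorectal carcinoma cell line. The control group, si-NC, held 3 libraries labelled wildtype, and si-NC is taken from that label as the control interfering RNA. The other group, si-STRIP2, held 3 libraries of cells that received an interfering RNA directed at STRIP2 and were labelled STRIP2 knockdown. Both groups shared the line and its culture medium. The dose, the time after treatment and the number of different interfering RNAs are not given in the sources used here.

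Core histones form the protein spool around which DNA is wrapped, and H1 binds the DNA that enters and leaves it. Most of these genes are transcribed while DNA is being copied. Their mRNAs end in a conserved stem-loop in place of a poly(A) tail, and stem-loop binding protein (SLBP) holds that structure through processing, translation and decay. Some histone genes, H1-10 among them, make ordinary polyadenylated mRNAs, and some clustered genes can also be polyadenylated downstream of the stem-loop. Selection on oligo(dT) beads keeps RNA with a poly(A) tail, so the counts describe the histone RNA that the beads retained. A change in the amount of a histone mRNA and a change in its tailed share cannot be told apart here. In bulk RNA, fewer cells of a kind and less RNA per cell cannot be told apart either.

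The stem-loop was searched for in the transcripts after the stop codon, as a 6-base arm starting GG, a 4-base loop starting T and a complementary second arm. It was found in 25 members. The search could succeed only where GENCODE 29 lists sequence after the stop codon. Many members, H1-2, H2AC14 and H2BC12 among them, have none listed, and 4 have no entry under their identifier. A member without a match is therefore not shown to lack the element. Within the 100 bases after the stop codon the stem-loop was present in 19 of the 28 members with that much annotated sequence (67.9%) and in 17 of 18238 other protein-coding genes (0.0932%). Of those 17, 6 were also histone genes, among them the 2 listed in GENCODE 29 under the older names of members H2AC18 and H2AC19, and 11 were not. The sites of 6 members are shown, because they are the same element in genes that were measured very differently. Each is written 5′ to 3′ from GENCODE 29 on GRCh38, with both stem arms in capitals.
H2AC6, chr6:26124664-26124689, plus strand: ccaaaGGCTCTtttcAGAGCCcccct
H2BC21, chr1:149886183-149886208, minus strand: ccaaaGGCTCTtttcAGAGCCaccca
H3C6, chr6:26225591-26225616, plus strand: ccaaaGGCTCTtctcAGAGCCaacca
H2BC5, chr6:26158582-26158607, plus strand: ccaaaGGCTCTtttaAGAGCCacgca
H4C5, chr6:26204996-26205021, plus strand: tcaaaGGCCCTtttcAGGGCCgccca
H2AC13, chr6:27808642-27808667, plus strand: ccaaaGGCTCTtttcAGAGCCaccta
The gene models of the deposited table ended at very different places relative to this element. The models of 12 of the 25 members ran at least 100 bases of genome (introns included) past the stem, by 1729 bases in H2BC21, 1862 in H3C6 and 14432 in H2AC6. The other 13 models stopped near it, 5 bases past the stem in both H4C5 and H2AC13.

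Library totals ranged from 17184963 to 21721218 counts, and TMM scaling factors from 0.9904 to 1.01. STRIP2, the targeted gene, fell to 72.6% of control (log2 change -0.46, SE 0.083, edgeR adjusted p = 1.62e-05), from 3.19, 3.77 and 3.81 FPKM to 2.71, 2.53 and 2.58. Markers of an epithelial line were high in every library, at 769 to 798 summed FPKM in si-NC and 726 to 751 in si-STRIP2, and markers of other cells summed to 2.72 or less. The labels do not say whether the libraries came from separate cultures, so p-values measure the spread between these libraries, which may be technical.

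Of the 70 members, 17 had no count in any library and 13 more had 1 to 9 counts in all 6 libraries together. The filter on low counts left 19 members for testing and removed 51. Among the 19, the edgeR quasi-likelihood test with Benjamini-Hochberg adjustment called 6 lower and 2 higher in si-STRIP2, and 11 did not pass. Over all 15687 genes tested, 54.8% were called, 27.8% higher and 27% lower, so 8 of 19 members was not a high share. The background among sparsely counted genes was smaller. Of the tested genes with 59 to 500 counts in all 6 libraries, 30.8% were called, and so were 4 of the 14 tested members in that range. The median log2 change of the 19 was -0.11, beside 0.0139 over all genes tested. In FPKM, 8 of the 19 members had groups without overlap, beside 58.6% of all genes tested.

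Long and short core histone genes had different sums. The 11 core members with at least 1000 exonic bases in the table had 414, 340 and 341 counts in si-NC and 242, 218 and 237 in si-STRIP2, a mean share of the library at 66.8% of control. All 3 si-STRIP2 libraries were below all 3 si-NC libraries. Most counts of this sum came from H2AC6, H2BC21 and H3C6, with 650, 293 and 276 over all 6 libraries. Each of these genes was called lower, so the sum largely restates their falls. The sum of the other long genes was not compared. The 49 shorter core members had 406, 284 and 310 counts in si-NC and 364, 318 and 364 in si-STRIP2, a mean share at 110.5% of control. For the shorter genes the groups overlapped, at 0.00177% ± 0.00012 (SD, n = 3) and 0.00196% ± 0.00015 (SD, n = 3). The difference between long and short models was seen in the values first and was not tested.

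**Figure D1:**
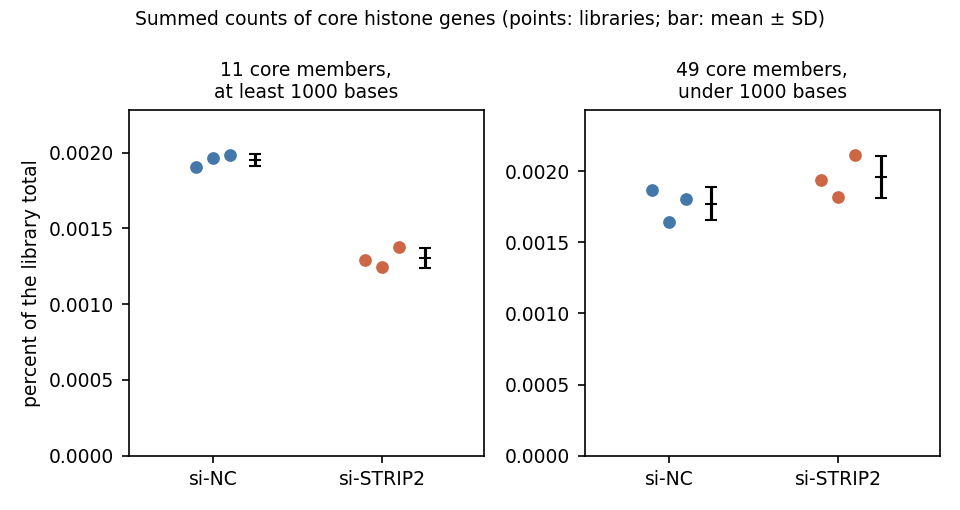
Percent of each library's counts held by the 11 long and the 49 short core histone genes, with a point for each library and a bar for the mean ± SD of 3. The si-STRIP2 points lie below the si-NC points for the long genes (means 0.00130% and 0.00195%) and overlap them for the short genes (means 0.00196% and 0.00177%). H2AC6, H2BC21 and H3C6 hold most of the counts of the long genes.

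H1-10 (ENSG00000184897, chr3:129314771-129316286, minus strand) encodes H1.10, a linker histone whose mRNA is polyadenylated. It measured 75.5, 77.6 and 58.8 FPKM in si-NC and 51.2, 57.2 and 49.8 FPKM in si-STRIP2. The third control library came close to the highest si-STRIP2 library without reaching it. The log2 change was -0.43 (SE 0.064, edgeR adjusted p = 7.20e-07), so H1-10 fell to 74.7% of control. A gene on the opposite strand, H1-10-AS1, overlaps it, and its counts were 0.223% of those of H1-10.

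H1-2 (ENSG00000187837, chr6:26055740-26056470, minus strand) encodes H1.2, a replication-dependent linker histone. Its values were 11.97, 9.88 and 11.22 FPKM in si-NC and 4.81, 6.03 and 6.35 FPKM in si-STRIP2. The lowest control was well above the highest si-STRIP2 library. H1-2 fell to 52.0% of control (log2 change -0.96, SE 0.138, edgeR adjusted p = 3.98e-07). It was the 1 called-lower member with under 1000 exonic bases, at 731.

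H1-4 (chr6:26156329-26157115, plus strand) encodes H1.4, also replication-dependent. It had 10, 10 and 9 counts in si-NC and 15, 10 and 14 in si-STRIP2. The groups met at the lowest si-STRIP2 library. The log2 change was 0.49 with a 95% interval from -0.22 to 1.2 (edgeR adjusted p = 0.262), and limma on log2(FPKM + 1) called it higher (adjusted p = 0.0415). The remaining 6 H1 genes were not tested, and 3 of them, H1-1, H1-5 and H1-8, had no count at all. H1-5 and H1-1 are somatic H1 genes of the chromosome 6 cluster, and H1-8 is the oocyte linker histone. With no count, the share of a library could still be up to 1.75e-05% (3 counts in the smallest library), counting error only.

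**Figure D2:**
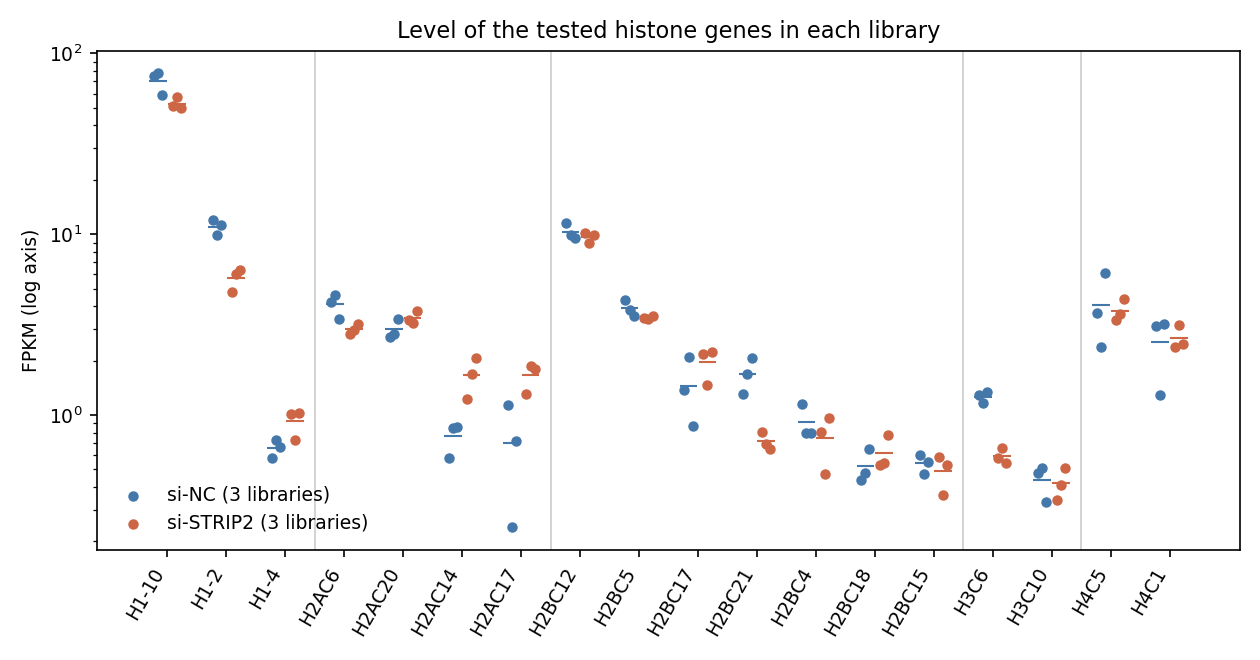
FPKM of tested histone members in the 6 libraries, on a log axis, with 1 column per gene, a point for each library and a short line at the mean of each group. H1-10 lies far above the other genes shown, at 49.8 to 77.6 FPKM, and the groups are apart for H1-10, H1-2, H2AC6, H2AC14, H2AC17, H2BC21 and H3C6.

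Of the 16 H2A genes, 4 were tested. H2AC6 (ENSG00000180573, chr6:26124145-26139116, plus strand) encodes a canonical H2A. It was at 4.22, 4.64 and 3.42 FPKM in si-NC and at 2.81, 2.95 and 3.17 FPKM in si-STRIP2. All si-STRIP2 libraries were lower than all controls, by a small margin at the closest pair. H2AC6 fell to 72.7% of control (log2 change -0.47, SE 0.136, edgeR adjusted p = 0.00414). Against a minimum change of 1.2-fold it did not pass (adjusted p = 0.0814).

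H2AC20 (chr1:149886918-149887411, plus strand) encodes a canonical H2A of the chromosome 1 cluster. It was at 2.70, 2.81 and 3.42 FPKM in si-NC and at 3.34, 3.24 and 3.76 FPKM in si-STRIP2. One control lay inside the si-STRIP2 range. The log2 change was 0.22, with a 95% interval from -0.26 to 0.69 (edgeR adjusted p = 0.469).

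The 2 members called higher were H2A genes with few counts and little sequence of their own. H2AC14 (ENSG00000276368, chr6:27814302-27814777, minus strand) had 6, 7 and 7 counts in si-NC and 11, 14 and 17 in si-STRIP2 (log2 change 1.12, SE 0.396, edgeR adjusted p = 0.0163). H2AC17 (ENSG00000278677, chr6:27892699-27893185, minus strand) had 12, 2 and 6 counts and then 12, 16 and 15 (log2 change 1.16, SE 0.418, edgeR adjusted p = 0.0185), and it was singled out after its values were seen. The FPKM groups did not overlap for either gene. Of the 75-base words in its GENCODE 29 transcripts, H2AC14 had 17.6% to itself and shared most of the rest with H2AC13, listed there as HIST1H2AI. H2AC17 had 14.7% to itself and shared most of the rest with H3C12, listed there as HIST1H3J, which overlaps it on the same strand. Where reads of such genes were counted is therefore uncertain. DESeq2 called neither (adjusted p = 0.0841 and 0.0753). H2AC14 also lost its call without si-NC 1 (adjusted p = 0.0906) and without si-STRIP2 3 (0.0966). H2AC17 lost its call without si-NC 2 (adjusted p = 0.137, log2 change 0.78), without si-STRIP2 2 (0.0675), without si-STRIP2 3 (0.0552) and against a 1.2-fold change (0.0531).

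H2B had the most tested genes, 7 of 17, and 1 call. H2BC21 (ENSG00000184678, chr1:149884459-149886682, minus strand) encodes an H2B known to give both stem-loop and polyadenylated mRNA. It was at 1.30, 1.69 and 2.07 FPKM in si-NC and at 0.81, 0.69 and 0.65 FPKM in si-STRIP2. The groups were clearly apart, with the wider spread among the controls. H2BC21 fell to 42.5% of control (log2 change -1.21, SE 0.209, edgeR adjusted p = 9.05e-06), the largest fall of any called member.

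H2BC12, the H2B gene with the highest level, did not share that fall. It was at 11.5, 9.92 and 9.52 FPKM in si-NC and at 10.2, 8.90 and 9.85 FPKM in si-STRIP2. The groups were interleaved (log2 change -0.11, 95% interval -0.39 to 0.17, edgeR adjusted p = 0.536). Of its 75-base words 49.5% were its own, and H2BFS, a near copy, held most of the rest. H2BC5 was at 4.33, 3.82 and 3.51 FPKM and then 3.46, 3.39 and 3.51 FPKM (log2 change -0.19, 95% interval -0.53 to 0.16, edgeR adjusted p = 0.381). H2BC17 had a log2 change of 0.43 with a 95% interval from -0.25 to 1.11 (edgeR adjusted p = 0.302). The log2 changes of H2BC4, H2BC15 and H2BC18 were -0.31, -0.14 and 0.25, and none passed the test. These 3 intervals reached from -1.06 to 0.84 between them.

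H3C6 was the H3 gene with the most counts. H3C6 (ENSG00000274750, chr6:26224199-26227473, plus strand) encodes the replication-dependent H3.1 protein. It had 75, 54 and 62 counts in si-NC and 29, 31 and 25 in si-STRIP2. The levels were 1.27 ± 0.097 FPKM and 0.593 ± 0.061 FPKM (SD, n = 3 each), and the groups did not overlap. H3C6 fell to 46.8% of control (log2 change -1.10, SE 0.200, edgeR adjusted p = 1.91e-05). H3C10 was the other tested H3 gene, with 13, 11 and 7 counts and then 8, 9 and 11. Its log2 change was -0.076, with a 95% interval from -0.84 to 0.69 (edgeR adjusted p = 0.885). All other H3 genes, 11 of 13, were below the filter, and 4 of them had no count.

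Neither tested H4 gene passed, by edgeR, at an unadjusted p of 0.05 or by DESeq2. H4C5 had 33, 17 and 43 counts in si-NC and 26, 26 and 31 in si-STRIP2, so the controls enclosed the other group (log2 change -0.098, 95% interval -0.64 to 0.44, edgeR adjusted p = 0.785). H4C1 had 27, 9 and 22 counts and then 18, 22 and 17 (log2 change 0.047, 95% interval -0.57 to 0.66, edgeR adjusted p = 0.911). A change of the size seen in H3C6 lies outside both intervals, and changes inside them were not detectable at this depth.

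The untested members with most counts were too sparse to compare. H4C3 had 5, 9 and 7 counts in si-NC and 17, 7 and 10 in si-STRIP2. H4C2 had 4, 6 and 3 counts and then 10, 11 and 9. H2BC11 had 7, 5 and 16 counts and then 5, 6 and 8. H4C8 and H2AC11 had 43 and 35 counts over all 6 libraries. Only H4C2 of these 5 had groups that did not overlap, and like the others it was outside the test.

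Calls were also counted by the length of the model and by the amount of unique sequence, splits chosen with the values known. Of the 15 members with at least 1000 exonic bases, 8 were tested, 5 were called lower and 0 higher (2-sided edgeR test; 0 higher at an unadjusted p under 0.05 and by DESeq2), with a median log2 change of -0.45. Of the 55 shorter members, 11 were tested, 1 was called lower and 2 higher, with a median of 0.047. Depth differed too, with medians of 284.5 counts over all libraries for the long tested members and 115 for the short ones. Over all genes tested, 54.8% were called, and 30.8% of those with 59 to 500 counts. Length and depth cannot be told apart in these calls. Of the 52 members with at least 50% of their words to themselves, 16 were tested and 6 were called, all lower. Of the 14 with less, 3 were tested and 2 were called, both higher. Among the members with a stem-loop, the 12 whose table model ran past it included 8 tested genes and 3 lower calls (H2AC6, H2BC21 and H3C6). The 13 whose model stopped near it included 1 tested gene, H4C5, and no call. Whether the reads of the longer genes lay past the stem-loop was not tested, since the table gives 1 count per gene.

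**Figure D3:**
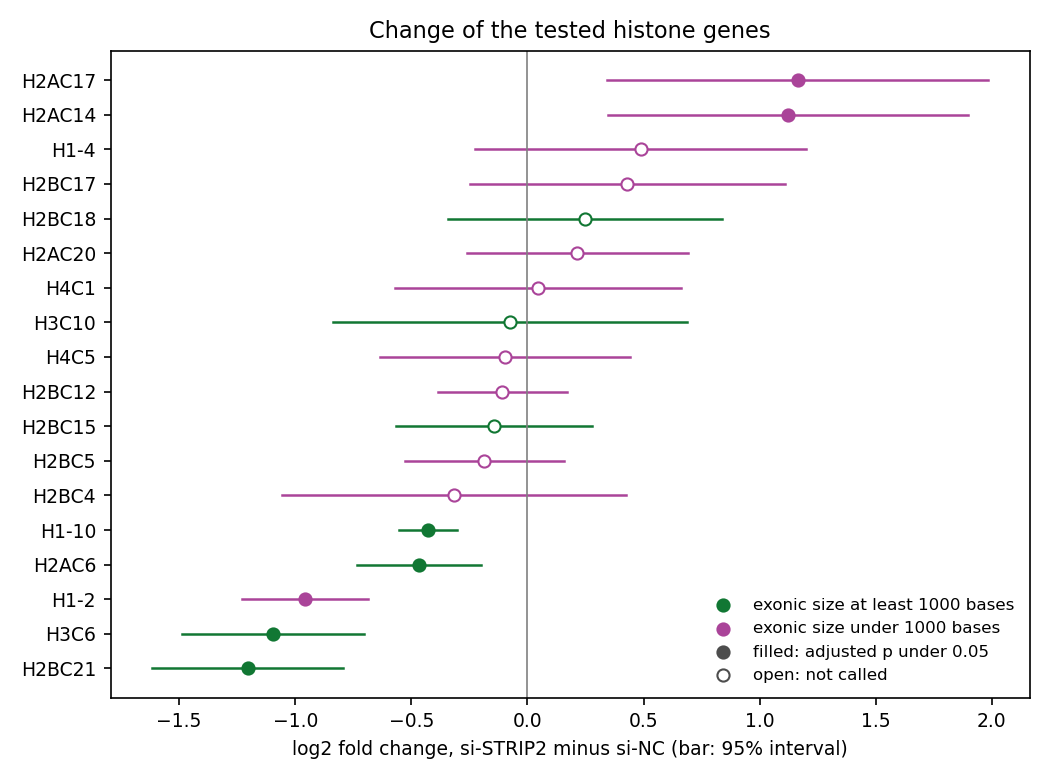
Log2 change (si-STRIP2 minus si-NC) of tested members, with bars for the 95% interval, color by exonic size (at least or under 1000 bases) and filled points for called genes. The genes called lower run from H2BC21 at -1.21 to H1-10 at -0.43, and the 2 called higher, H2AC14 and H2AC17, have the widest intervals among called genes.

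Promoters of the families differed in their short motifs. RefSeq entries (GRCh38.p14) were found for 64 members, as 69 promoters, and the 250 bases upstream of each start were searched on both strands. CCAAT was present in 100% of the H2A, H2B and H3 promoters, in 25% of the H4 promoters and in 32% of all 35116 promoters. TATAAA was present in 65.2% of member promoters and 10.7% of all. The octamer that binds POU factors was present in 73.3% of H2A and 78.9% of H2B promoters, in none of the 10 H1 or 12 H4 promoters, and in 1.63% of all. AAACACA, the H1 box, was present in 70% of H1 promoters, in 0 of the core histone promoters and in 4.82% of all. GGTCCG, the core of the H4 site bound by HINFP, was present in 91.7% of H4 promoters and 9.43% of all. Most H2A windows overlapped the window of an H2B gene on the opposite strand, by 193 to 247 bases. As both strands were searched, a site in the shared bases was counted for both genes. The H2A and H2B percentages are therefore not independent. A match is a description of letters and shows no binding.

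In 11 pairs of members the upstream windows lay over each other on opposite strands, and in 3 pairs both genes were tested. H2AC20 and H2BC21 share 235 bases of chr1:149886683-149886917 and are transcribed away from each other. The ratio of H2BC21 to H2AC20 in FPKM was 0.482, 0.601 and 0.605 in si-NC and 0.243, 0.213 and 0.173 in si-STRIP2. Every si-STRIP2 ratio was below every control ratio. The log2 difference in that ratio was -1.43 (2-sided exact permutation test, p = 0.1, the smallest that 3 against 3 libraries can give), and the pair was picked after its values were seen. H2AC6 and H2BC4 share 245 bases and had log2 changes of -0.47 and -0.31. H2AC17 and H2BC17 share 239 bases and had log2 changes of 1.16 and 0.43. In each of these 3 pairs 1 gene passed the test and the other did not, which does not show that their changes differ.

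Histone variants outside the symbol rule are mostly made from polyadenylated mRNAs throughout the cell cycle. Most of those tested were measured far more deeply than the core members, with a median of 8381 counts over all libraries. Of 15 listed, 14 were in the table and 11 were tested, of which 4 rose and 4 fell. Among all genes tested, 27.8% were called higher and 27% lower. H2BU1, 1 of the 4 that fell, had 100 counts over all libraries and overlapping groups in FPKM (log2 change -0.89, edgeR adjusted p = 0.0266). The H3.3 genes moved in opposite directions. H3-3A rose from 28.6 ± 0.84 to 39.3 ± 1.4 FPKM (SD, n = 3 each; log2 change 0.46, edgeR adjusted p = 2.87e-11), and H3-3B fell from 259.6 ± 6.0 to 184.6 ± 1.5 FPKM (log2 change -0.50, edgeR adjusted p = 1.86e-11). H3-3A had 89.0% of its 75-base words to itself. Both genes encode the same H3.3 protein, which is deposited outside replication. The FPKM ratio of H3-3B to H3-3A went from 9.04, 9.06 and 9.15 to 4.54, 4.63 and 4.94 (2-sided exact permutation test, p = 0.1, the smallest possible). H2A.Z, a variant found at promoters, showed the same split between its genes. H2AZ1 rose from 255.9 to 319.1 FPKM (log2 change 0.32, edgeR adjusted p = 1.70e-07) and H2AZ2 fell from 42.2 to 34.9 FPKM (log2 change -0.28, edgeR adjusted p = 2.39e-07). Neither H2A.Z gene passed against a 1.2-fold change (adjusted p = 0.131 and 0.402). H2AX, the damage-response variant, rose by a log2 change of 0.17 (edgeR adjusted p = 0.00800) and lost its call without si-STRIP2 2 (adjusted p = 0.114). MACROH2A1 rose by 0.17 on the log2 scale (edgeR adjusted p = 0.000385). Against a 1.2-fold change, 2 of the 8 called variants passed, H3-3A and H3-3B, so neither H2AX nor MACROH2A1 did. CENPA, the centromeric H3, was at 16.5 and 15.3 FPKM and did not pass (edgeR adjusted p = 0.130). It passed without si-STRIP2 2 (adjusted p = 0.0430), and an overlapping gene, SLC35F6, had 184% of its counts.

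The machinery that makes and removes histone mRNA was measured well. Of 28 processing, translation and decay genes, 27 were tested, 16 rose and 4 fell, with a median log2 change of 0.15. Among all genes tested, 27.8% were called higher and 27% lower, with a median of 0.0139. Against a 1.2-fold change, 11 of the 20 calls remained. SLBP, which binds the stem-loop printed above, rose from 67.4 ± 2.7 to 80.3 ± 0.62 FPKM (SD, n = 3 each; log2 change 0.25, edgeR adjusted p = 4.17e-06), and did not pass against a 1.2-fold change (adjusted p = 0.687). LSM11, a subunit of the U7 particle that directs the cut after the stem-loop, rose from 1.97 to 2.63 FPKM (log2 change 0.42, edgeR adjusted p = 0.000112). LSM10, the other subunit particular to that particle, was at 11.1 and 9.82 FPKM in groups that did not overlap (log2 change -0.18, 95% interval -0.34 to -0.021, edgeR adjusted p = 0.0595). It was called lower by limma on log2(FPKM + 0.1), by limma on log2(FPKM + 1) and with a filter of 1 FPKM in 3 libraries (adjusted p = 0.00808, 0.00859 and 0.0325). ZNF473, a zinc finger protein of the same cleavage complex, rose by 0.24 on the log2 scale (edgeR adjusted p = 0.00327), with overlapping genes at 95% of its counts, and did not pass against a 1.2-fold change (adjusted p = 0.729). CPSF1, a subunit of the general cleavage and polyadenylation factor, rose from 13.39 to 19.01 FPKM (log2 change 0.50, edgeR adjusted p = 3.68e-11). SRRT, a cap-complex partner that links capping to this cut, rose from 19.1 to 33.4 FPKM (log2 change 0.80, edgeR adjusted p = 4.88e-17). ERI1, the exonuclease that trims the stem-loop during decay, fell from 23.4 to 17.0 FPKM (log2 change -0.46, edgeR adjusted p = 1.55e-10). CASP8AP2, a scaffold of the histone locus body, was at 7.49 and 7.78 FPKM (log2 change 0.054, 95% interval -0.044 to 0.15).

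Of 20 genes for histone gene transcription, all were tested, 11 rose and 4 fell, beside 27.8% called higher and 27% lower among all genes tested. Against a 1.2-fold change, 5 of the 15 calls remained. NPAT, the coactivator that switches on the clusters, was at 6.82 and 6.38 FPKM, a log2 change of -0.098 with a 95% interval from -0.20 to 0.0088 (edgeR adjusted p = 0.128). CCNE1, cyclin E1, whose kinase activates NPAT, rose from 11.1 to 20.5 FPKM (log2 change 0.89, edgeR adjusted p = 1.34e-14). CREBBP, a histone acetyltransferase and coactivator, fell from 7.75 to 5.48 FPKM (log2 change -0.50, edgeR adjusted p = 6.75e-12). CDKN1A, the inhibitor p21, fell from 43.3 to 28.4 FPKM (log2 change -0.61, edgeR adjusted p = 1.29e-13).

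Of 32 genes for histone chaperones, acetylation and nuclear import, 26 rose and 4 fell, with a median log2 change of 0.30. The share called over all genes tested was 27.8% higher and 27% lower, with a median of 0.0139. The list was deeply counted, at a median of 12857.5 counts over all libraries. Against a 1.2-fold change, 12 of its 30 calls remained. NASP, which keeps a soluble store of H3 and H4 and also binds H1, rose from 25.9 ± 0.60 to 44.4 ± 0.26 FPKM (SD, n = 3 each; log2 change 0.77, edgeR adjusted p = 9.88e-18). NPM1, a nucleolar histone chaperone, rose from 165.1 to 265.3 FPKM (log2 change 0.68, edgeR adjusted p = 4.71e-14), with 87.7% of its 75-base words to itself. CHAF1A and CHAF1B encode subunits of CAF-1, which deposits H3 and H4 on newly copied DNA. They rose by log2 changes of 0.67 and 0.56 (edgeR adjusted p = 3.92e-13 and 1.02e-11), with overlapping genes at 60.6% and 111% of their counts. ASF1B, the proliferation-linked H3 and H4 chaperone, rose by a log2 change of 0.32 (edgeR adjusted p = 2.85e-07) and lost its call in 1 of 15 alternatives. Its paralogue ASF1A fell by 0.39 on the log2 scale (edgeR adjusted p = 1.04e-07), with an overlapping gene, MCM9, at 26.4% of its counts. HAT1, which acetylates new H4, was at 22.1 and 22.9 FPKM and did not pass (adjusted p = 0.344).

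Of 40 DNA synthesis genes, 35 rose and 2 fell, with a median log2 change of 0.45. SLBP was on this list as well as on the processing list, and its rise was counted in both. MCM5, MCM4 and MCM3, subunits of the replicative helicase, rose by log2 changes of 1.51, 1.37 and 1.01. The 2 that fell were CDC6 and RRM2, which were picked out after their values were seen, each by under 1.2-fold (log2 changes -0.17 and -0.18). Of the 15 core histone genes tested, 2 were called higher (H2AC14 and H2AC17, with mostly shared sequence), 3 were called lower and 10 were not called. The lists differed in depth, with a median of 11098.5 counts over all libraries for the DNA synthesis genes and 59 to 650 counts for the tested core genes. Over all genes tested, 54.8% were called, and 30.8% of those with 59 to 500 counts. The difference between the lists was not tested, and their numbers of calls are not comparable at such unlike depths.

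As a gauge of RNA without a poly(A) tail in these libraries, 39 listed small noncoding RNAs held 0.000610% ± 0.0000899 of the control counts and 0.000540% ± 0.0000828 of the knockdown counts (SD, n = 3 each). Most of these counts came from SNORA73B (275 over all libraries), which lies within RCC1 and SNHG3, and RN7SL1 (204), which overlaps RPS29. Reads of these small RNAs and of the overlapping genes cannot be told apart in the table. Most of the 39 are also shorter than any histone member, with RNU6-1 at 107 bases and the shortest member, H4C7, at 386. Some, RNU6-1 and RNU1-1 among them, have no 75-base word to themselves. The gauge is therefore rough and does not measure histone mRNA without a tail. Of the 39, 19 had no count in any library and 3 were tested, with 0 called by edgeR, 0 at an unadjusted p under 0.05 and 0 by DESeq2. Mitochondrial transcripts, which were 7.01% ± 2.01 and 6.00% ± 0.287 of counts (SD, n = 3 each), overlapped between the groups. The part of either in the histone values was not tested.

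**Figure D4:**
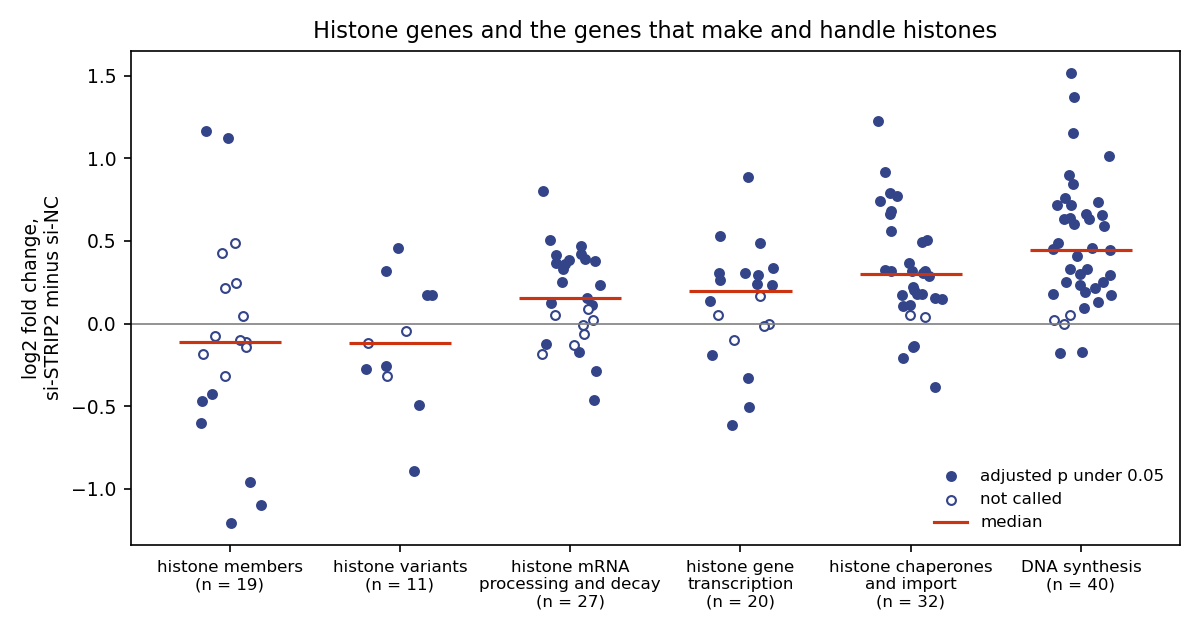
Log2 change (si-STRIP2 minus si-NC) of every tested gene in the histone members and 5 companion lists, with filled points for called genes and a line at each median. The DNA synthesis and chaperone lists lie mostly above 0 (medians 0.45 and 0.30), and the histone members lie on both sides (median -0.11). SLBP is drawn in both the processing and the DNA synthesis lists.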

How the data were processed

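Poly(A)-selected, directional RNA-seq libraries of HCT116 were made from oligo(dT)-bound RNA, per the labels' protocols. The submitters' processing notes name bcl2fastq 2.20.0.422, FastQC 0.10.1, cutadapt 1.9.1, HISAT2 2.2.1, HTSeq 0.6.1 and GRCh38.p13, without roles, and whether counting used the strand is not given in the sources used here. The authors deposited a table with a raw count and an FPKM value (fragments scaled by exonic size and library total) for each gene and library, per the file headers. The deposited FPKM values were recomputed from count, exonic size and column total within 0.005. Groups came from the sample titles, with 3 libraries each and 17184963 to 21721218 counts per library.

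In R 4.3.3, edgeR 4.0.16 was fitted to all genes kept by filterByExpr (minimum count 10), with TMM factors and group as the only term. The quasi-likelihood F test was 2-sided and adjusted by Benjamini-Hochberg over 15687 genes, with calls at an adjusted p under 0.05. SE was the absolute log2 change over the square root of F, and 95% intervals were 1.96 SE to each side. The fit was tested on simulated data. Those data had the same dispersion for every gene and a far smaller share of changed genes than was called here. The simulation therefore does not vouch for the calls on these libraries. Alternatives used DESeq2 1.42.0, limma 3.58.1 on log2(FPKM + 1) and log2(FPKM + 0.1), other scaling factors, other filters, a 1.2-fold test, a replicate block and single libraries left out. Unique sequence was the share of 75-base words found in no other gene of GENCODE 29, in which 66 of 70 members were matched by identifier.

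Named genes were all tested H1 genes, the 3 highest tested genes of each core family by FPKM, the 10 largest rises and falls among called members with a mean of at least 20 counts in the higher group, the 5 untested members with most counts, a fixed set of companion genes, and the 3 called genes with the smallest adjusted p in each companion list. Other genes that appear were picked once their values were known, or complete a tested family. The members, gene lists and rules were chosen with earlier results of these data known. Of the members, 1 is counted in the totals and is not reported here. Intervals came from the same fit as the p-values and cover the spread between these libraries, which may be technical. The floor of 3 counts covers counting error only.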

Additional observations from a re-analysis of the deposited data

How the results depend on the processing

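Low counts set the limit: 51 of 70 members could not be tested, and 14 of the 19 tested had at most 500 counts. The number of members called lower was 6 with any single library left out, while those called higher ranged from 0 to 2. Members called higher numbered 0 with DESeq2, 1 against a 1.2-fold change and 0 among members with at least 50% unique words, against 2 in all. They numbered 3 with a filter of 1 FPKM, with no filter on low counts and with limma on log2(FPKM + 1). Against a 1.2-fold change, calls were 2 variants (of 8), 11 processing genes (of 20), 5 transcription genes (of 15), 12 chaperone genes (of 30) and 22 DNA synthesis genes (of 37). For RNAs without a poly(A) tail the calls were 1 with no filter on low counts and 0 to 1 with single libraries left out. The cause of these differences was not tested, apart from the stricter threshold. With single libraries left out, the log2 changes of 4 uncalled genes changed sign. H3C10 ranged from -0.238 to 0.0693 (above 0 without si-NC 1, si-NC 2 or si-STRIP2 1), H4C5 from -0.354 to 0.276 (above 0 without si-NC 3), H4C1 from -0.253 to 0.244 (below 0 without si-NC 2 or si-STRIP2 2) and H2BC15 from -0.284 to 0.0339 (above 0 without si-STRIP2 2). None of these passed. Of 51 genes, 32 kept call and direction in every alternative that gave a value, which was 15 for 30 of them and 14 for H2BC4 and H2BC18. Same-numbered libraries did not deviate together (r from -0.0858 to -0.0133), and with the replicate block 8 members and 8293 genes were called, against 8 and 8599.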
